A study of Homo sapiens with 6 samples.

Results

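The BCL2 family decides whether a cell releases cytochrome c from its mitochondria and dies by apoptosis. Its pro-survival proteins hold the effectors BAX and BAK in check at the mitochondrial outer membrane. BH3-only proteins sense stress and either occupy the groove of the pro-survival proteins or act on the effectors directly, through a short helix called the BH3 motif. Lung adenocarcinoma cells often rely on MCL1 or BCL-XL, the protein of BCL2L1, to stay alive. Described here are 10 genes of this family, taken by symbol from the 23368 genes of the deposited table. The pro-survival members are BCL2, BCL2L1, BCL2L2 and MCL1. The pro-death members are the effector BAK1 and the BH3-only genes BCL2L11 (BIM), BID, BAD, BIK and BMF. All 10 symbols were in the table, and 9 passed the filter on low counts; BMF did not.

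RNA was sequenced from H2122, an established line of human lung adenocarcinoma. The cells had been transfected 48 hours earlier with either a control shRNA or an shRNA to LYCAT. LYCAT, now named LCLAT1, is an acyltransferase that remodels cardiolipin and phosphatidylinositol. Each group had 3 libraries, and all 6 differed in the labels only by the shRNA and a replicate number. The series title calls the cells a knockout, while the labels of the samples name an shRNA. The labels do not say how many shRNA sequences were used or whether libraries that share an shRNA derive from different cultures; the p-values below reflect how much these libraries vary, and that variation may be technical only.

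Library totals ran from 3118946 to 4930079 counts, so 1 count was worth 0.203 to 0.322 CPM (counts scaled to a library size of 1000000). LCLAT1 fell to 35.5% of its control level (log2 fold change -1.499, SE 0.114, edgeR adjusted p = 1.15e-18), with no overlap between the groups. All 6 epithelial markers of a fixed list were detected, EPCAM at 644 ± 16.8 CPM in the controls (SD, n = 3). Their summed level was 1607 to 1697 CPM in the control libraries and 1432 to 1498 CPM with LYCAT shRNA. Of the 6, 4 fell at an edgeR adjusted p under 0.05 (66.7%, beside 9.26% of all tested genes). KRT18, which fell, had overlapping groups. Of 13 markers of fibroblasts, endothelium and blood, PECAM1, CDH5, PTPRC and CD3E were at 0 counts in every library. Over all 6 libraries the fibroblast markers DCN, PDGFRB and LUM had 1, 10 and 40 counts, and HBB, VWF and CD68 had 1, 2 and 104. The collagen genes COL1A1, COL1A2 and COL3A1 lay behind most of that list's level, which summed to 34.2 to 133 CPM in the controls and 24.5 to 41 CPM with LYCAT shRNA. Of the 4 tested markers 0 passed with edgeR, 1 at an unadjusted p under 0.05, 1 with DESeq2, 2 with limma-voom and 3 with robust=FALSE. Of 7 signs of cell stress and RNA quality, which summed to 3730 to 4160 CPM in the controls and 3429 to 3799 CPM with LYCAT shRNA, 6 were tested. The immediate early gene EGR1 rose (log2 0.41, edgeR adjusted p = 0.000309) and the nuclear RNA NEAT1 fell (log2 -0.36, adjusted p = 4.05e-06). The other 4 tested did not pass, among them FOS, also an immediate early gene (log2 0.12, edgeR adjusted p = 0.838). The part of these lists in the results below was not tested, and fewer cells of a type cannot be told apart from less RNA per cell in bulk libraries.

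The BH3 core is shown here because both sides of the family carry it and because BH3-only proteins act through it; the grouping by role was taken from the known function of each gene, not from this stretch. Transcripts of GENCODE v29 (GRCh38) were translated and searched for a pattern of allowed residues at fixed spacing. It was located in all 10 genes, 1 time in each coding transcript used. The pattern allowed the residues that the members carry, and only transcripts with a match were used. Finding it in all 10 genes was therefore not a test. Of 19669 coding genes, 3.48% hold a match of this kind, so the pattern alone does not define a BH3 protein. Each run below is 24 bases of coding sequence, 5′ to 3′. Capitals mark the codon of the first hydrophobic residue, leucine or in BCL2L2 methionine, and the codon of the conserved aspartate.
BCL2: CTCcgccaggccggcGACgacttc
BCL2L1: CTGagggaggcaggcGACgagttt
BCL2L2: ATGcgggcagctggaGATgagttc
MCL1: TTAcgacgggttgggGATggcgtg
BAK1: CTCgccatcatcgggGACgacatc
BCL2L11: TTGcggcgtattggaGACgagttt
BID: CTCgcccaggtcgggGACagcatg
BAD: CTCcggaggatgagtGACgagttt
BIK: CTGgcctgcatcgggGACgagatg
BMF: CTTcagtgcattgcaGACcagttc

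The BH3 core of MCL1 lies in exon 1 of transcript MCL1-202, at chr1:150578871-150578894 on the minus strand, and that of BIK in exon 3 of BIK-201, at chr22:43127716-43127739 on the plus strand. The closest pair was BAK1 and BIK, both pro-death genes, with 19 of 24 bases identical. BCL2 and BCL2L1 shared 17 of 24, as did BAK1 and BID, and BCL2L11 and BAD. Of all 45 pairs 21 lie within a side. All 4 pairs with at least 17 identical bases did, and 7 of the 9 with at least 16. At 15 identical bases the pairs were all of opposite sides: BCL2 with BAK1, and BCL2L1 with BCL2L11 and with BAD. For MCL1 the sides overlapped. It shared 10 to 13 bases with the other pro-survival genes, 14 with each of BCL2L11 and BID, and 9 to 11 with the other pro-death genes. BCL2L2 and BID, of opposite sides, were the least alike, with 7 of 24, and BID and BMF, both pro-death, shared 8.

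With LYCAT shRNA, MCL1 rose 1.24-fold, and it was the only member that passed (edgeR quasi-likelihood test, adjusted p under 0.05 over all 11097 tested genes). The other 8 tested members did not pass in either direction, and 0 of the 5 tested pro-death members passed (1 at an unadjusted p under 0.05, and 0 with DESeq2 or limma-voom). That is 1 of 9 members, or 11.1%, where 19.1% of all tested genes were called. For genes that rose the background was 9.81%, and for genes that fell 9.26%. These shares were not matched for level. By mean control CPM, all tested members but MCL1 and BID lay below the median of tested genes. Their percentiles ran from 6.13 (BCL2) to 48.5 (BAD). At an unadjusted p under 0.05 there were 3 members, MCL1, BCL2L2 and BIK, and all 3 were higher. The median log2 fold change was 0.17 over the 4 pro-survival members and 0.07 over the 5 tested pro-death members, against -0.0057 over all tested genes. The groups did not overlap for 3 of 9 members (33.3%), where they did not for 32.8% of all tested genes.

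**Figure D1:**
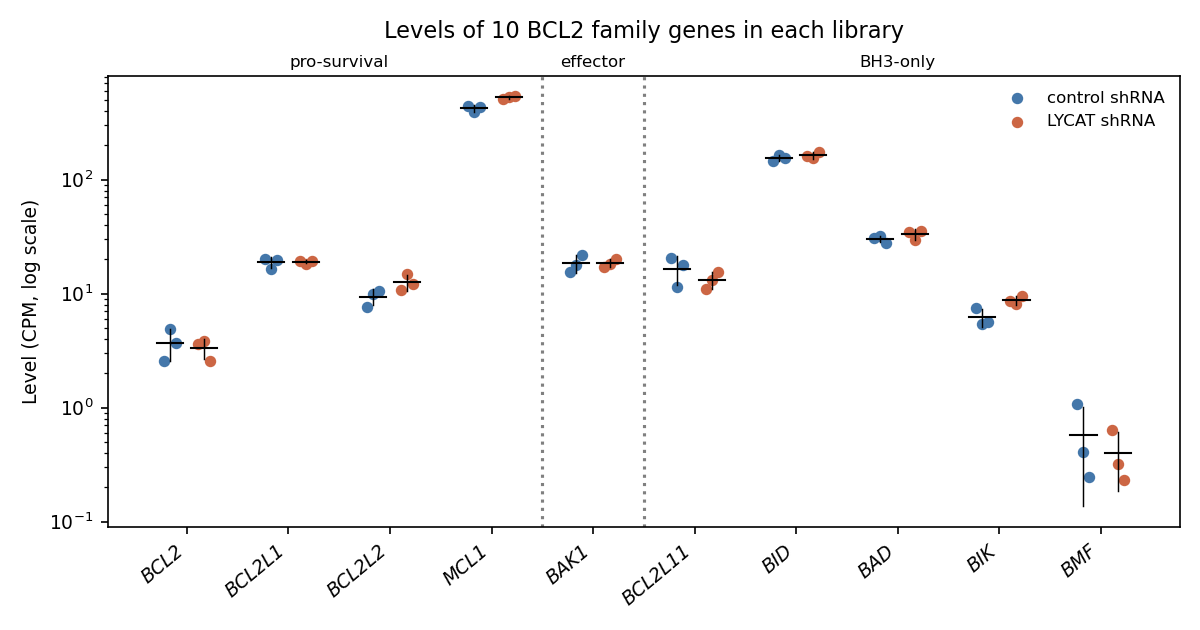
Level of each of the 10 genes in CPM on a log axis, by library (points), with the group mean (horizontal line) and SD (vertical line, n = 3 per group). MCL1 is the highest in every library, with its LYCAT shRNA points above its control points, and BMF is near the limit of detection in both groups.

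Among the pro-survival genes, MCL1 encodes a short-lived protein that binds BAK and many BH3-only proteins. The control libraries held it at 447, 389 and 438 CPM, and those with LYCAT shRNA at 513, 527 and 539 CPM. Every LYCAT shRNA library was above every control library, and control library 2 was the lowest of the 6. The mean went from 425 ± 31 to 527 ± 13.2 CPM (SD, n = 3 each; log2 0.31, SE 0.05, edgeR adjusted p = 1.13e-06). An exact permutation test, two-sided, gave p = 0.1, the smallest value that 3 against 3 libraries can give. Its log2 change was 0.25 without control library 2, the library with its lowest level, and 0.27 without control libraries 1 and 2, which had the higher collagen levels (edgeR adjusted p = 4.81e-06 and 0.000814). The change was below 1.5-fold, and tested against that size MCL1 did not pass (glmTreat adjusted p = 1).

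BCL2L1 encodes BCL-XL and, by splicing, a shorter form that promotes death; counts per gene do not separate these forms. Its level was 20.1, 16.4 and 19.9 CPM in the controls and 19.4, 18.4 and 19.4 CPM with LYCAT shRNA. The LYCAT shRNA values all lay within the range of the controls. The log2 fold change was 0.02, with a 95% interval of -0.28 to 0.33, so a rise of the size seen for MCL1 lies inside this interval and was not resolvable at this depth.

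BCL2, the founding member of the family, was scarce. Its counts were 12, 24 and 15 in the controls and 17, 12 and 11 with LYCAT shRNA, or 2.57 to 4.86 and 2.57 to 3.87 CPM. The ranges overlapped almost fully, and the 95% interval of the log2 fold change, -0.85 to 0.52, is wide at these counts. BCL2L2, which encodes BCL-W, was at 7.72, 9.93 and 10.6 CPM in the controls and at 10.8, 14.8 and 12.1 CPM with LYCAT shRNA. The groups did not overlap, by a margin of about 1 count (log2 0.40, 95% interval 0.0023 to 0.80, edgeR adjusted p = 0.159). BCL2L2 shares its exons with a read-through gene, BCL2L2-PABPN1, that had 0 counts in all 6 libraries, and PABPN1 itself had 4 counts in all. Reads that lie in both genes may not have been counted, so the level of BCL2L2 is uncertain.

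BAK1 is the effector among the members; its protein forms pores in the outer membrane once activated. Its level was 15.4, 18 and 21.9 CPM in the controls and 17.2, 18.4 and 20.1 CPM with LYCAT shRNA. The LYCAT shRNA values again fell inside the control range (log2 0.02, 95% interval -0.30 to 0.33, edgeR adjusted p = 0.963).

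BID is cleaved by caspase-8 and carries death receptor signals to the mitochondria. It was the second most abundant member, at 146, 165 and 157 CPM in the controls and 161, 155 and 175 CPM with LYCAT shRNA. The groups overlapped. Its 95% interval was -0.06 to 0.20 on the log2 scale, the narrowest among the pro-death members, and its upper end is below the change measured for MCL1. BAD, which binds BCL2, BCL-XL and BCL-W and is kept inactive by phosphorylation, was at 30.6, 32.2 and 28.1 CPM and at 34.7, 29.3 and 35.7 CPM. LYCAT shRNA library 2 lay within the control range (log2 0.14, 95% interval -0.09 to 0.38). BAD overlaps GPR137, which had 398 counts in all, and whether counting used strand is not known here.

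BCL2L11 encodes BIM, a BH3-only protein that binds all pro-survival members and can activate the effectors. Its level was 20.6, 11.6 and 17.7 CPM in the controls and 11.1, 13.2 and 15.4 CPM with LYCAT shRNA. Control library 2 stood with the LYCAT shRNA libraries, and the other control libraries were above all 3 of them. It was the pro-death member with the most negative estimate (log2 -0.33, 95% interval -0.69 to 0.04, edgeR adjusted p = 0.228). The call rested on that library: without control library 2 the log2 fold change was -0.54 and BCL2L11 passed as lower (edgeR adjusted p = 0.0241), while without control library 1 it was -0.13 (adjusted p = 0.749). Transcripts of BIM, of which the annotation lists 17 coding forms, were not separated.

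BIK, whose protein resides mainly at the endoplasmic reticulum, was at 7.50, 5.47 and 5.66 CPM in the controls and at 8.72, 8.06 and 9.57 CPM with LYCAT shRNA. All 3 LYCAT shRNA libraries were above all controls, on counts of 23 to 41. BIK had the highest estimated fold change of the members, 1.42-fold (log2 0.50, 95% interval 0.03 to 0.98, unadjusted p = 0.0369), and it did not pass over all genes (edgeR quasi-likelihood adjusted p = 0.13). BMF, which is tethered to dynein light chain until a cell detaches or is stressed, had counts of 5, 2 and 1 in the controls and 3, 1 and 1 with LYCAT shRNA. These are around the level of 3 counts, or 0.608 to 0.967 CPM, and no fold change is given.

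**Figure D2:**
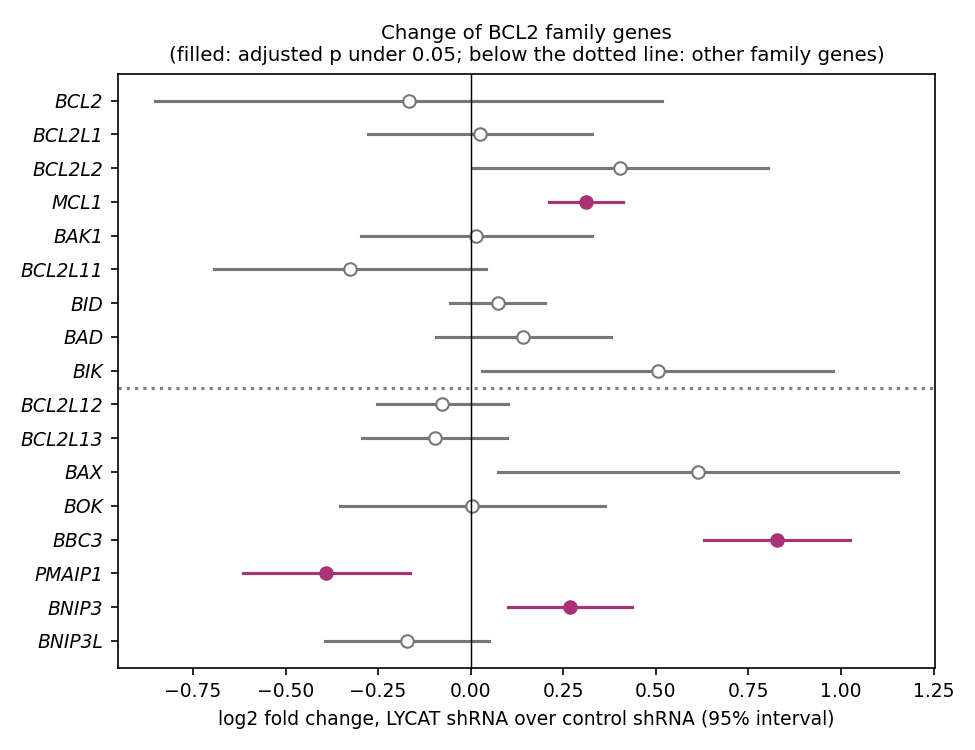
log2 fold change of LYCAT shRNA over control shRNA (x axis) with its 95% interval for the 9 tested members and, below the dotted line, 8 other tested BCL2 family genes; filled points passed at an adjusted p under 0.05. MCL1 is the only filled point among the members, and BBC3, PMAIP1 and BNIP3 are filled below.

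Levels were compared between genes per length, as CPM per kilobase of exon (RPKM). In the controls the order was MCL1 at 97.2 ± 7.09 RPKM, BID at 35.1 ± 2.09, BAD at 17.7 ± 1.23, BAK1 at 8.35 ± 1.48, BIK at 6.52 ± 1.18 and BCL2L1 at 5.68 ± 0.633 (SD, n = 3 each). Below these were BCL2L11 at 2.50 ± 0.693 RPKM, BCL2L2 at 2.25 ± 0.359, BCL2 at 0.315 ± 0.0974 and BMF at 0.105 ± 0.0804. Neighbours whose control ranges overlapped were BAK1 with BIK, BIK with BCL2L1, and BCL2L11 with BCL2L2. With LYCAT shRNA the means of BIK (9.22 ± 0.796 RPKM) and BCL2L2 (3.01 ± 0.486) came above those of BAK1 (8.39 ± 0.650) and BCL2L11 (1.99 ± 0.327); these changes of order were not tested. The length counted for a gene sets these levels: with the longest coding transcript in place of all exons, BID was at 62.5 RPKM and BCL2L1, at 7.22 RPKM, came above BIK in the controls.

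MCL1 made up 92.2 ± 0.405% of the summed pro-survival RPKM in the controls and 93 ± 0.241% with LYCAT shRNA, so the pro-survival side at the RNA level was close to MCL1 alone. BID made up 49.9 ± 2.04% and 48.5 ± 0.66% of the summed pro-death RPKM. The pro-survival sum was 110, 96.8 and 109 RPKM in the control libraries and 126, 130 and 132 RPKM in the LYCAT shRNA libraries, with no overlap. The pro-death sum was 69, 71.7 and 70.2 RPKM in the controls and 75.1, 71 and 81.8 RPKM with LYCAT shRNA, where the groups overlapped at LYCAT shRNA library 2.

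The ratio of the pro-survival to the pro-death sum was 1.60, 1.35 and 1.55 in the controls and 1.68, 1.83 and 1.62 with LYCAT shRNA. All 3 LYCAT shRNA values were above the controls, the closest pair being LYCAT shRNA library 3 and control library 1. The mean went from 1.501 ± 0.132 to 1.71 ± 0.11 (SD, n = 3 each), a difference of 0.19 on the log2 scale that is given as a description without a test. This difference was not seen without the most abundant member of each side, MCL1 and BID. The ratio was then 0.226, 0.224 and 0.253 in the controls and 0.224, 0.262 and 0.211 with LYCAT shRNA, and the groups overlapped. Both genes were left out together. The mean of BID, which is in the pro-death sum, was 35.1 RPKM in the controls and 36.8 RPKM with LYCAT shRNA. Both sums hold the members only. Left out were BBC3 at 11.9 RPKM in the controls and 21.3 RPKM with LYCAT shRNA, and PMAIP1 at 18.2 and 14 RPKM. BAX at 1.84 and 2.84 RPKM and the pro-survival BCL2A1 at 0 and 0.706 RPKM were also left out. The ratio is thus not one of all pro-survival to all pro-death RNA. It also depends on the length counted: with the longest coding transcript, control means were 108 RPKM for MCL1 and 62.5 RPKM for BID.

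**Figure D3:**
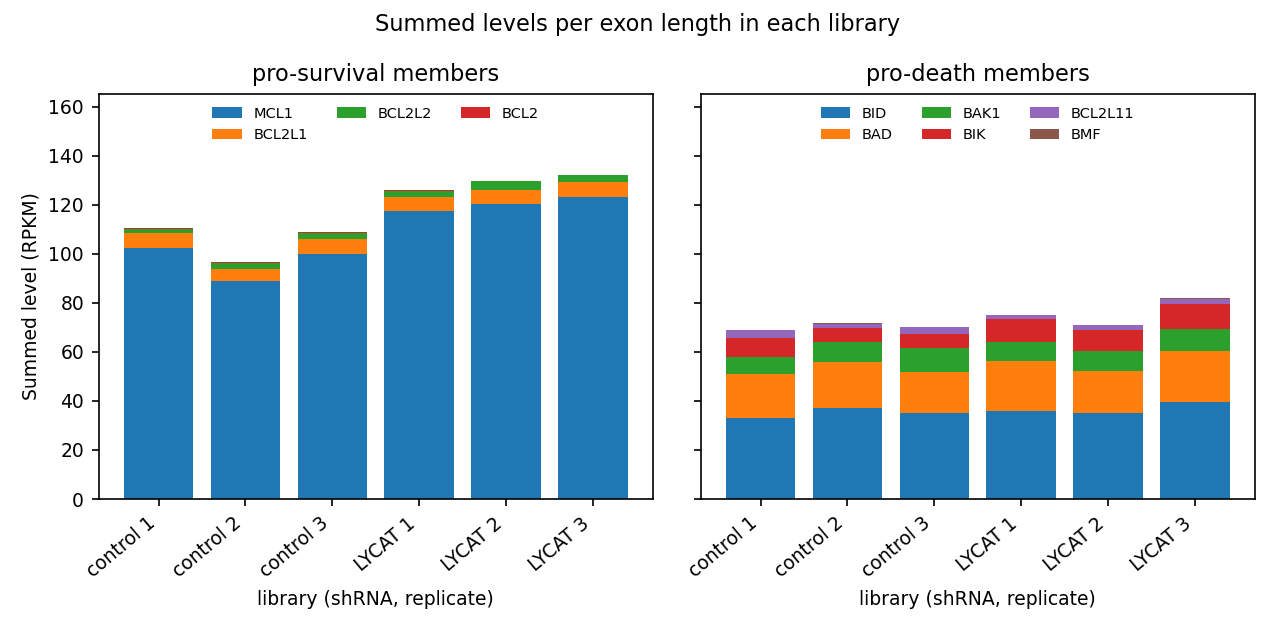
Summed level in RPKM (y axis, from 0) of the pro-survival members (left) and the pro-death members (right) in each of the 6 libraries, stacked by gene. MCL1 fills over 90% of each bar on the left, and the LYCAT shRNA bars there reach 126 to 132 RPKM against 96.8 to 110 RPKM in the controls.

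The family has further genes outside the 10, fixed as a list of 13, of which 8 were tested. BBC3 and BNIP3 rose, PMAIP1 fell, and the median log2 fold change of the 8 was -0.04. The called share was 37.5%, beside 19.1% of all tested genes. BBC3, which encodes the BH3-only protein PUMA, was at 40.1, 36.5 and 36.9 CPM in the controls and 65.5, 74.8 and 62.6 CPM with LYCAT shRNA. It rose 1.77-fold (log2 0.83, SE 0.0989, edgeR adjusted p = 2.14e-10), and did not pass when tested against a 1.5-fold change (glmTreat adjusted p = 0.123). PMAIP1, which encodes NOXA, the BH3-only protein that binds MCL1 selectively and promotes its degradation, went the other way. It stood at 42, 41.1 and 38.7 CPM in the controls and 27, 33.2 and 33.6 CPM with LYCAT shRNA, and it fell 1.31-fold (log2 -0.39, SE 0.114, edgeR adjusted p = 0.009). The fall did not pass without LYCAT shRNA library 1 (edgeR adjusted p = 0.142), without control libraries 1 and 2 (0.235) or with DESeq2 (0.0766).

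Set beside MCL1 per length, these BH3-only genes moved apart. The RPKM ratio of MCL1 to PMAIP1 was 5.44, 4.84 and 5.79 in the controls and 9.72, 8.11 and 8.20 with LYCAT shRNA, while the ratio of MCL1 to BBC3 was 8.12, 7.76 and 8.62 in the controls and 5.70, 5.12 and 6.27 with LYCAT shRNA. The groups did not overlap in either ratio. For PMAIP1 this follows from the single genes and adds nothing to them. Every LYCAT shRNA library was above every control library for MCL1 and below every control library for PMAIP1. Both ratios were chosen after the values were seen and are not tested.

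BNIP3, a mitophagy receptor with a BH3-like stretch, rose 1.20-fold from 133 ± 20.3 to 160 ± 11.7 CPM (edgeR adjusted p = 0.0207). Its groups overlapped, and it did not pass without control library 2 or 3 or LYCAT shRNA library 2 or 3 (edgeR adjusted p = 0.0532 to 0.154), without control libraries 1 and 2 (0.0613) or with DESeq2 (0.0548). Without control library 2 its log2 fold change was 0.15, against 0.27 with all libraries. BAX, the effector that pairs with BAK1, was at 3.22, 5.67 and 5.42 CPM in the controls and 8.08, 8.38 and 5.60 CPM with LYCAT shRNA, on counts of 15 to 38. Its groups overlapped and it did not pass (log2 0.61, 95% interval 0.07 to 1.15, edgeR quasi-likelihood adjusted p = 0.105). BCL2L12, BCL2L13, BOK and BNIP3L had log2 fold changes of -0.08, -0.10, 0.0045 and -0.17 and did not pass, and the value of BNIP3L depended on the controls. It passed as lower without control library 3 (log2 -0.29, edgeR adjusted p = 0.0284), while the log2 fold change was -0.0047 without control library 1 and 0.14 without control libraries 1 and 2 (adjusted p = 0.985 and 0.508).

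The pro-survival gene BCL2A1, an NF-kB target, had 0 counts in each control library and 3 counts in each LYCAT shRNA library, too few to test. BCL2L15 had 0 to 2 counts per library, HRK 0 to 7, and BCL2L10 and BCL2L14 had none.

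Of 78 further cell death genes and partners in the table, the 13 family genes above included, 72 were tested, of which 13 rose, 5 fell and 54 did not pass. The called share was 25%, beside 19.1% of all tested genes. The share that rose was 18.1%, beside 9.81%, and these shares were not matched for level. Downstream of the members, in the list of the apoptosome and caspases, 1 of 12 rose and none fell (8.33% called, beside 19.1% of all tested genes). CYCS, which encodes cytochrome c, went from 1187 ± 35.6 to 1372 ± 9.46 CPM, a 1.16-fold rise (edgeR adjusted p = 9.35e-05); it has many processed pseudogenes among which reads can be split. Of 7 caspases 0 passed with edgeR, DESeq2 or limma-voom and 1, CASP8, had an unadjusted p under 0.05; named after its value was seen, CASP8 (log2 -0.22 with all libraries) passed as lower without control library 2 (log2 -0.35, edgeR adjusted p = 0.00861) and was at log2 -0.10 without control library 1 (adjusted p = 0.643). Among 10 IAP genes and proteins released from mitochondria, BIRC3, an inhibitor of apoptosis induced by NF-kB, rose 1.32-fold from 47.4 ± 3.74 to 62.2 ± 3.19 CPM (edgeR adjusted p = 0.0013), and the other 9 did not pass. That is 10% called, beside 19.1% of all tested genes.

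Genes that set the stability of the MCL1 protein did not move one way: of 10 tested, 1 rose and 2 fell, PMAIP1 among the latter. The called share was 30%, beside 19.1% of all tested genes. HUWE1, a ubiquitin ligase of MCL1, was 142.6 ± 12.8 CPM in the controls and 122 ± 4.65 CPM with LYCAT shRNA (log2 -0.22, edgeR adjusted p = 0.0174). FBXW11, a subunit of another ubiquitin ligase, was 60.6 ± 5.39 and 73.6 ± 0.811 CPM (log2 0.27, adjusted p = 0.0189). Both calls were fragile: HUWE1 did not pass without control library 2 or 3 or LYCAT shRNA library 2 or 3, and FBXW11 not without control library 3 or any LYCAT shRNA library. Their edgeR adjusted p in those fits was 0.0519 to 0.135 and 0.0565 to 0.131. Neither passed with DESeq2 (adjusted p = 0.0945 and 0.0897), nor HUWE1 without control libraries 1 and 2 (0.113).

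Among 17 binding partners and kinases of BH3-only proteins, there were 3 that rose and 2 that fell (29.4% called, beside 19.1% of all tested genes). SFN, the 14-3-3 sigma gene, went from 214 ± 14.8 to 329 ± 17.9 CPM, a 1.54-fold rise (edgeR adjusted p = 4.83e-15). Tested against a 1.5-fold change, SFN did not pass. YWHAH and YWHAG, further 14-3-3 genes whose proteins hold phosphorylated BAD in the cytosol, rose by log2 0.34 and 0.17, and YWHAE, chosen after seeing the values, was lower (log2 -0.16, edgeR adjusted p = 0.00476). YWHAE did not pass without control library 3 or LYCAT shRNA library 3 (edgeR adjusted p = 0.0513 and 0.0657). PIM1, a kinase that phosphorylates BAD, fell 1.77-fold from 29.6 ± 4.89 to 16.7 ± 1.9 CPM (edgeR adjusted p = 7.38e-06). Against a 1.5-fold change it did not pass (glmTreat adjusted p = 0.675). PIM1 did not pass without control libraries 1 and 2 (log2 -0.59, edgeR adjusted p = 0.0545).

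At the outer membrane, where the family acts, 4 of 8 listed genes (50%) rose, beside 9.81% of all tested genes, and none fell. The 8 genes were abundant, with control means of 114 (TOMM40) to 553 CPM (VDAC1), and the background share was not matched for level. The call of 1 of the 4 that rose, VDAC3, was lost in 11 of 15 alternatives, the test against a 1.5-fold change aside. MFF, a receptor for the fission protein DRP1, rose by log2 0.29, and the channel genes VDAC1 and VDAC2, the latter a partner of BAK, by 0.20 and 0.16 (edgeR adjusted p = 0.000141, 0.000756 and 0.0117). VDAC2 did not pass without LYCAT shRNA library 2 (edgeR adjusted p = 0.0681), and VDAC3, named after its value was seen (log2 0.15), passed without control library 1 but failed to pass when any other library was left out (0.0517 to 0.322), with log2 0.10 without LYCAT shRNA library 3. It also did not pass with the replicate block (edgeR adjusted p = 0.06), library totals (0.0686), robust=FALSE (0.0523), limma-voom (0.058), DESeq2 (0.121) or without control libraries 1 and 2 (0.0887). Of 8 tested transcription factors linked to BH3-only genes, 1 rose and 1 fell (25% called, beside 19.1% of all tested genes). DDIT3 (CHOP), which induces BCL2L11 and BBC3 under stress of the endoplasmic reticulum, fell 1.59-fold from 20.7 ± 1.6 to 12.6 ± 4.19 CPM (edgeR adjusted p = 0.00232). Tested against a 1.5-fold change, DDIT3 did not pass. RELA, an NF-kB subunit, rose by log2 0.31 (edgeR adjusted p = 0.016), though not without control library 3 or LYCAT shRNA library 1 (0.106 and 0.236) or with DESeq2 (0.0995). FOXO1 and FOXO3, named after their values were seen, did not pass (log2 0.25 and 0.05).

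**Figure D4:**
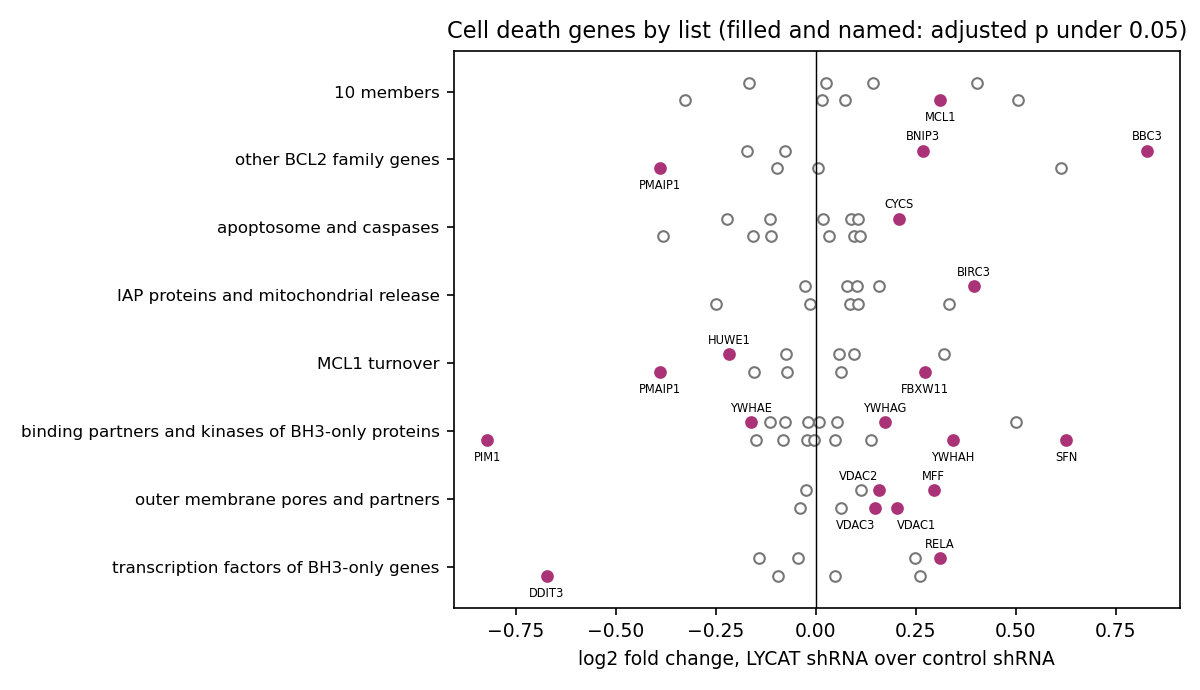
log2 fold change of LYCAT shRNA over control shRNA (x axis) of each tested gene in the lists of cell death genes, 1 row per list; filled, named points passed at an adjusted p under 0.05. In the top row MCL1 is the only filled point, and in the other rows the filled points range from -0.82 (PIM1) to 0.83 (BBC3).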

How the data were processed

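The authors deposited 1 table of raw counts per gene symbol for the 6 libraries. The LYCAT shRNA columns are headed with what appears to be a misspelt LYCAT, and were assigned on that basis. The tools, per the submitters' processing notes, include featureCounts 1.5.1 and the aligners BWA 0.7.15 and Bowtie2, beside bcl2fastq 2.17, and the builds are hg19 and mm10; the aligner and build behind the table are not given in the sources used. Reads shared by overlapping genes or near-identical copies may be missing or split.

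Low counts were removed with filterByExpr, which left 11097 of 23368 genes. Libraries were scaled with TMM, and the groups compared with edgeR 4.0.16 (R 4.3.3; glmQLFit with robust=TRUE, glmQLFTest, group as the only term) with Benjamini-Hochberg adjustment over all tested genes at 0.05. The SE is the size of the log2 fold change divided by the square root of F, and 95% intervals use it with the t quantile, unadjusted. The fit was tested on simulated counts with 200 changed genes, drawn without regard to level. It recovered 68% of 1.5-fold and 86% of 2-fold changes, and 4.35% of its calls were false. Smaller changes were not simulated. RPKM uses the union of exons of GENCODE v29 (GRCh38); coordinates are of that build.

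The members, the lists and the alternatives were chosen with earlier results of these data known. Named are the 10 members, LCLAT1, the other family genes, and from each list the called gene of lowest adjusted p for each direction, with up to 2 more called genes; others are marked as named after their values were seen. Alternatives were DESeq2 1.42.0 and its size factors, library totals, 2 other filters, limma-voom (limma 3.58.1), a replicate block, glmTreat against 1.5-fold, robust=FALSE, and leaving out libraries.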

Additional observations from a re-analysis of the deposited data

How the results depend on the processing

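MCL1 kept its direction and its call in 15 of 16 alternatives, with log2 fold changes of 0.25 to 0.35; the exception is the test against a 1.5-fold change. That test called 148 genes (84 higher, 64 lower) and 0 members, 0 of them higher, also at an unadjusted p under 0.05. DESeq2 called 1193 genes (635 higher, 558 lower), and the fit without control libraries 1 and 2, which takes the single remaining control to vary as the other group does, called 1129 (573 higher, 556 lower); these fits use another test or fewer samples, and the cause was not tested further. MCL1 was the only member called in both. With 1 library left out, 1 to 2 members were called, 0 to 1 of them lower; the second was BCL2L11 without control library 2. Scaling by library totals moved the median of all genes by -0.01 on the log2 scale and gave 966 higher and 1127 lower genes, against 1089 and 1028. The log2 difference of the pro-survival to pro-death ratio was 0.12 to 0.24 with 1 library left out, 0.20 with the longest coding transcript, and -0.0116 without the most abundant member of each side, which reverses it. Correlations of same-numbered deviations were 0.01, -0.06 and -0.05. They showed no pairing by replicate number, but a small shared effect could be missed. With the replicate block 2046 genes and 1 member, MCL1, were called, and the log2 fold change of LCLAT1 was -1.498. VDAC3 lost its call, the only call the block changed among the genes recomputed under each alternative. Depth limits BCL2, BIK, BCL2L2 and BAX, with under 60 counts in every library, and BMF and BCL2A1, which could not be tested.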
